A study of Mus musculus with 36 samples.

Results

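Ionotropic and metabotropic glutamate receptor subunits and the subunits of GABA-A and GABA-B receptors were examined in whole brain, and then in liver, of mice kept awake for 6 h. Members were taken by gene symbol from the probe sets with 1 symbol: the AMPA (Gria), kainate (Grik), NMDA (Grin), delta (Grid) and metabotropic (Grm) glutamate receptor genes, and the Gabra, Gabrb, Gabrg, Gabrd and Gabbr genes. They came to 33 of 18193 genes and to 74 of the 45037 probe sets tested. Of the 33 genes, 10 had 1 probe set and 23 had several, up to 5. The representative of a gene, in both tissues, was whichever of its probe sets was brightest on average in the 18 brain arrays.

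Male mice aged 12 to 13 weeks, from the AKR/J, C57BL/6J and DBA/2J inbred strains, either were kept awake from light onset (Zeitgeber time, ZT, 0) or stayed undisturbed in their home cages, and all were killed at ZT 6. The labels name no transgene and no drug treatment. Each Affymetrix array measured RNA pooled from 3 mice, with 3 arrays in each of the 12 groups (2 tissues, 3 strains and 2 conditions), so the spread between replicates is that between pools. For AKR/J control arrays 2 and 3 of each tissue the labels disagree on the time of death, ZT 0 in one field and ZT 6 in another.

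Glutamate is the main excitatory transmitter of the brain and GABA the main inhibitory one. AMPA, kainate and NMDA receptors are cation channels assembled from several subunits, metabotropic glutamate and GABA-B receptors act through G proteins, and GABA-A receptors are chloride channels built from alpha, beta and gamma or delta subunits, the targets of benzodiazepines, barbiturates and many general anaesthetics. The number of synaptic AMPA receptors is known to vary between waking and sleep, and drugs acting on GABA-A receptors are used to induce sleep.

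The arrays were closely alike within brain (correlations between arrays of 0.978 to 0.997) and within liver (0.980 to 0.996). In brain, 29 of the 33 genes had a mean above the median brain value of 4.77 on the log2 scale, and the representative means ran from 3.78 to 10.51. The 4 below it were Grin3b, Grin2a, Grik1 and Gabrg3. In liver, 26 of the 33 lay below the liver median of 4.10, as did 5 of 8 neuronal marker genes. Some brain arrays stood apart. One sleep-deprived array of each strain (array 1 of C57BL/6J, array 3 of AKR/J and array 2 of DBA/2J) had a narrow spread, with an SD over probe sets of 1.90 to 1.96 against 1.97 to 2.05 on the others. A pair of controls, C57BL/6J array 2 and DBA/2J array 3, had a raised difference between 3' and 5' beta-actin probe sets, a sign of RNA quality, of 1.13 and 0.98 against 0.58 to 0.89 on the other 16. Results that rest on these 5 arrays are given with and without them.

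The first comparison asked which receptor genes respond to sleep loss in brain. No member gene passed the threshold, an adjusted p under 0.05 in limma with Benjamini-Hochberg adjustment over all 45037 probe sets, for the effect averaged over the 3 strains: 0 of 33 genes, against a background of 2.55% of all genes. At an unadjusted p under 0.05 there were 6 of 33 genes, or 18.2%, against 15.5% of all genes. Their mean effects, in log2 units from sleep-deprived minus control arrays, were small. They ran from -0.24 for Grm7, a presynaptic group III metabotropic receptor, to 0.12 for Gabra6, a GABA-A alpha subunit found mostly in cerebellar granule cells. At the level of probe sets, 1 of 74 passed, against 1.73% of all.

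Grik5 encodes a kainate receptor subunit that binds glutamate with high affinity, and had the lowest adjusted p of the 33 genes. In C57BL/6J its controls read 8.56, 8.82 and 8.65 and its sleep-deprived arrays 8.19, 8.55 and 8.53. In AKR/J the controls read 8.85, 8.72 and 8.84 and the sleep-deprived arrays 8.65, 8.58 and 8.55. In DBA/2J the controls read 8.76, 8.88 and 8.99 and the sleep-deprived arrays 8.68, 8.69 and 8.69. All sleep-deprived arrays lay below all controls in each strain, the only member gene of 33 for which this or the opposite held in all 3 strains, against 1.97% of all genes. The mean difference was -0.22 ± 0.06 (SE, 3 arrays per group), with an adjusted p of 0.0697, and thus missed the threshold. Grin2c, an NMDA subunit typical of cerebellar granule cells and astrocytes, followed at -0.23 ± 0.08 (adjusted p = 0.1895), and Grm7 at -0.24 ± 0.10 (adjusted p = 0.3040). Grm5, the postsynaptic group I receptor that binds Homer proteins, was at -0.20 ± 0.10 (adjusted p = 0.4046), and Grm2, a presynaptic group II receptor, at -0.17 ± 0.08 (adjusted p = 0.3647).

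The probe set that passed belonged to Gria2, the AMPA subunit whose edited form makes the channel impermeable to calcium. On probe set 1453098_at the AKR/J controls read 9.24, 9.32 and 9.28 and the sleep-deprived arrays 8.69, 8.84 and 8.87, which did not overlap. In DBA/2J the controls read 9.13, 9.40 and 9.35 and the sleep-deprived arrays 8.99, 9.00 and 9.22. In C57BL/6J the controls read 8.85, 9.03 and 8.92 and the sleep-deprived arrays 8.51, 8.87 and 8.97. In these 2 strains the conditions overlapped. The probe set fell by 0.28 on the log2 scale (SE 0.07, 1.22-fold; adjusted p = 0.0374), and passed under 11 of 27 alternative settings, with effects of -0.31 to -0.19. Leaving out any one of 12 of the 18 arrays ended the call, as did leaving out AKR/J. The other Gria2 probe sets did not pass: the brightest, 1421970_a_at, was at -0.00 ± 0.09 (adjusted p = 0.9944) and 1434146_at at -0.11 ± 0.08 (adjusted p = 0.6598).

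**Figure D1:**
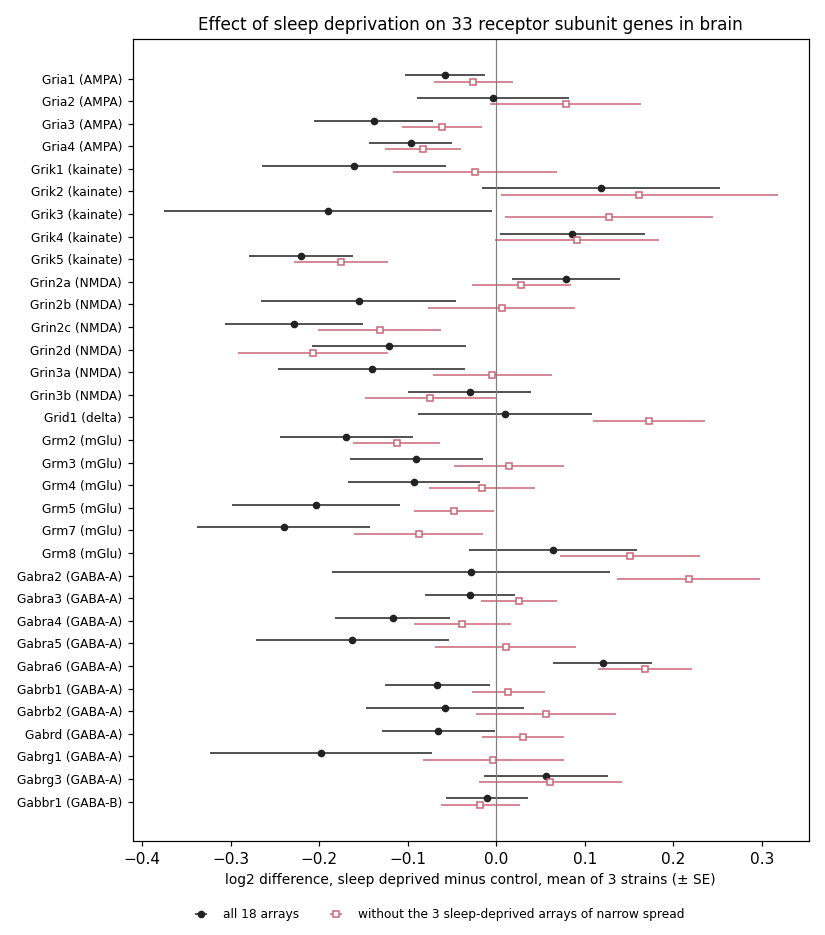
Mean effect of sleep deprivation on the representative probe set of each of the 33 genes in brain (log2 difference, sleep deprived minus control, averaged over 3 strains; bars are SEs from limma), with all 18 arrays (filled circles) and without the 3 sleep-deprived arrays of narrow spread (open squares). With all arrays 26 of 33 genes lie below 0, and without the 3 arrays 16 of 33 do.

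By sign alone, 26 of the 33 genes were below 0, with a median of -0.09, while 53.8% of all genes were below 0, with a median of -0.01. All 4 AMPA subunits (Gria1 to Gria4, median -0.08), 3 of 5 kainate, 5 of 6 NMDA and 5 of 6 metabotropic glutamate receptor genes were on that side, as were 8 of 10 GABA-A subunits (median -0.06) and Gabbr1, the GABA-B subunit that binds the transmitter. Grid1, a delta receptor, was at 0.01. This count moved with the 3 arrays of narrow spread. On them the median deviation of the 33 genes from their strain's control mean was -0.23 in DBA/2J and -0.20 in each of C57BL/6J and AKR/J, with 31, 25 and 27 of the genes below that mean. On the other 6 sleep-deprived arrays the median deviation was -0.09 to 0.04, with 11 to 22 of the genes below that mean. Controls had 9 to 27 of the genes below it, the 27 on AKR/J control array 2 at a median of -0.06. The counts alone thus do not set the 3 arrays apart. Without the 3 arrays 16 of 33 genes were below 0 and the median was 0.01, against 56.5% and -0.02 for all genes, although more genes passed over the whole array (5.43% of all genes), with 0 of the 33 among them. Without all 5 arrays that stood apart, 17 of 33 were below 0. Without the 3 arrays Grm7 was at -0.09 ± 0.07 in place of -0.24, Grm5 -0.05 ± 0.05 and Gabrg1 -0.00 ± 0.08 in place of -0.20, while Grik5 was at -0.18 ± 0.05 and Grin2c at -0.13 ± 0.07. Without all 5 arrays Grik5 was at -0.13 (adjusted p = 0.1412), Grin2c at -0.08 (adjusted p = 0.5564) and Grm7 at -0.03 (adjusted p = 0.8691).

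**Figure D2:**
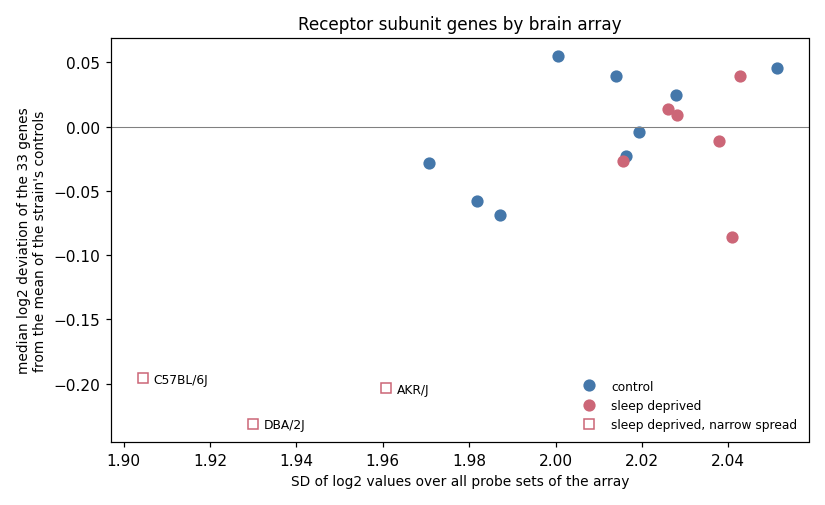
Median log2 deviation of the 33 receptor subunit genes from the mean of their strain's controls (vertical axis) against the SD of log2 values over all probe sets of the array (horizontal axis), 1 point for each of the 18 brain arrays. The 3 sleep-deprived arrays with an SD of 1.90 to 1.96 (open squares) have the lowest medians, -0.20 to -0.23.

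Bulk RNA cannot tell fewer cells of a type from less RNA in each cell. Neuronal marker genes averaged between 10.96 and 11.12 on every brain array. Of 6 cerebellar markers, Cbln3 and Cbln1, granule cell synapse organisers, fell with sleep deprivation (-0.48, adjusted p = 6.814e-04, and -0.25, adjusted p = 0.0174), and the other 4 were at -0.01 to 0.03. The mean of the 6 went from 10.10 to 10.21 in AKR/J controls to 9.99 to 10.07 after sleep deprivation, without overlap. In C57BL/6J it was 9.98 to 10.11 against 9.81 to 10.02, and in DBA/2J 9.63 to 9.85 against 9.49 to 9.74, with overlap in both. The mean of 5 oligodendrocyte markers lay lower without overlap in sleep-deprived AKR/J (10.65 to 10.69 against 10.75 to 10.81) and DBA/2J (10.49 to 10.65 against 10.74 to 10.77), and with overlap in C57BL/6J (10.60 to 10.84 against 10.83 to 10.90). Of these markers Mog was at -0.33 (adjusted p = 0.0557) and Mag at -0.18 (adjusted p = 0.0702), and none of the 5 passed. The part of these markers in the values of the 33 genes was not tested.

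Within single strains no member passed. The count was 0 of 33 genes and 0 of 74 probe sets for C57BL/6J (backgrounds 0.0550% and 0.0377%), for AKR/J (0.423% and 0.300%) and for DBA/2J (0.148% and 0.104%), and 2, 1 and 0 of the 33 genes had an unadjusted p under 0.05, against 5.16%, 7.63% and 7.93% of all genes. They were Grik5 (-0.26 ± 0.10) and Grin2c (-0.32 ± 0.13) in C57BL/6J and Grm2 (-0.37 ± 0.13) in AKR/J. Gria2 probe set 1453098_at was at -0.48 ± 0.11 in AKR/J (adjusted p = 0.1319), and passed there without the 3 arrays of narrow spread (-0.51, adjusted p = 0.0322). The strain by sleep deprivation interaction passed for 0 of 33 genes and 0 of 74 probe sets, with 0 of 45037 called over the whole array. At an unadjusted p under 0.05 there were 0 of the 33 genes, against 1.76% of all genes. Sleep-deprived and control arrays lay apart in opposite ways in 2 strains for 1 of 74 probe sets, a dim one of Grm7, against 0.702% of all. Growth hormone (Gh), a pituitary marker, read 4.68 to 5.18 in AKR/J controls and 9.83 to 11.41 in sleep-deprived AKR/J, against 10.36 to 12.87 on all but 1 array of the other strains (4.24 on sleep-deprived C57BL/6J array 3). Its part in the AKR/J values here and in the strain differences that follow was not tested.

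The strains differed for several receptor probe sets in brain, most of all for Gabra2. Among controls, 5 of 74 probe sets passed between AKR/J and C57BL/6J (background 2.00%), 5 between DBA/2J and C57BL/6J (1.90%) and 6 between DBA/2J and AKR/J (1.59%). By representative probe set these were 1, 2 and 2 of 33 genes (backgrounds 2.01%, 1.77% and 1.54%), in all Gabra2, Gabrb2 and Gabbr1. Among sleep-deprived mice 6, 5 and 3 probe sets passed (1.81%, 2.03% and 1.56%), and 2, 1 and 1 genes (1.86%, 1.92% and 1.54%), namely Gabra2, Gabra6 and Gabbr1. The shares of genes rest on 1 or 2 members each. The 2 conditions are separate pools of mice. All 16 calls in controls and all 14 in sleep-deprived mice had the same sign in the other condition, and 10 passed in both. These calls include several probe sets each of Gabra2 and Gabrb2, and both conditions share 1 fit. The same count over all probe sets was not made, so it is not read as a trait of the members. On these arrays a difference between strains in the amount of transcript and one in the sequence under the probes cannot be told apart.

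Gabra2 encodes the GABA-A alpha-2 subunit, found in forebrain and on the axon initial segment of pyramidal cells. Among controls it gave the largest strain difference of the 74 probe sets, and was lower in C57BL/6J than in both other strains. On the representative probe set 1455444_at the C57BL/6J controls read 5.98, 5.90 and 6.21 and the sleep-deprived arrays 5.11, 6.43 and 6.31. The AKR/J controls read 7.54, 7.13 and 7.41 and the sleep-deprived arrays 7.67, 7.51 and 7.42. The DBA/2J controls read 7.43, 7.21 and 7.65 and the sleep-deprived arrays 7.56, 6.73 and 7.45. All 6 C57BL/6J arrays lay below all 12 others, and the 5.11 was that of the array of narrow spread. The group means in controls were 6.03 ± 0.16 for C57BL/6J, 7.36 ± 0.21 for AKR/J and 7.43 ± 0.22 for DBA/2J (SD, n = 3). The level was 2.52-fold higher in AKR/J than in C57BL/6J (1.33 ± 0.27 on the log2 scale, adjusted p = 0.0121) and 2.64-fold higher in DBA/2J (1.40 ± 0.27, adjusted p = 0.0076). In sleep-deprived mice it was 3.00-fold (1.58 ± 0.27, adjusted p = 0.0030) and 2.46-fold higher (1.30 ± 0.27, adjusted p = 0.0135). AKR/J and DBA/2J differed by 0.07 ± 0.27 in controls, which did not pass.

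On a further pair of Gabra2 probe sets C57BL/6J was again the lowest strain, while AKR/J, and not DBA/2J, had the highest control mean. On 1421738_at the C57BL/6J controls read 5.99, 4.88 and 5.85, the AKR/J controls 7.80, 7.56 and 7.57 and the DBA/2J controls 7.24, 7.12 and 6.93. The 4.88 was that of C57BL/6J control array 2, 1 of the 2 controls of raised beta-actin difference. The differences from C57BL/6J were 2.07 ± 0.22 for AKR/J (4.20-fold, adjusted p = 1.693e-05) and 1.53 ± 0.22 for DBA/2J (2.88-fold, adjusted p = 4.542e-04) in controls, and 1.21 (adjusted p = 0.0045) and 1.04 (adjusted p = 0.0134) in sleep-deprived mice. Without the 5 arrays that stood apart the control differences were 1.72 and 1.26, and both passed. On 1443865_at the differences were 1.61 (adjusted p = 1.146e-04) and 1.37 (adjusted p = 5.440e-04) in controls and 1.30 (adjusted p = 0.0011) and 1.16 (adjusted p = 0.0027) in sleep-deprived mice. The remaining Gabra2 probe sets, 1449807_x_at and 1420299_at, were dim, with means of 3.36 and 3.30, and did not pass. On the 3 bright probe sets the control differences passed in all alternatives for 1421738_at and 1443865_at, and for 1455444_at in 23 of 28 (AKR/J) and 28 of 29 (DBA/2J). For 1455444_at the AKR/J call was lost without C57BL/6J control array 1 or 2 or AKR/J control array 1 or 3 (adjusted p = 0.0520 to 0.0677) and at 1.52 (adjusted p = 0.1764) without both AKR/J controls whose labels conflict, and the DBA/2J call without DBA/2J control array 3 (adjusted p = 0.0501). Both control calls on 1455444_at passed without the 5 arrays that stood apart, at 1.27 for AKR/J (adjusted p = 4.144e-05) and 1.23 for DBA/2J (adjusted p = 1.251e-04). Among sleep-deprived mice, the DBA/2J call was lost on 1455444_at without DBA/2J array 1 or 3 (adjusted p = 0.0819 and 0.0775) and on 1421738_at without C57BL/6J array 1 or 3 or DBA/2J array 1 (adjusted p = 0.0585 to 0.0822). On both probe sets it passed without the 5 arrays (adjusted p = 2.532e-04 and 3.131e-04).

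**Figure D3:**
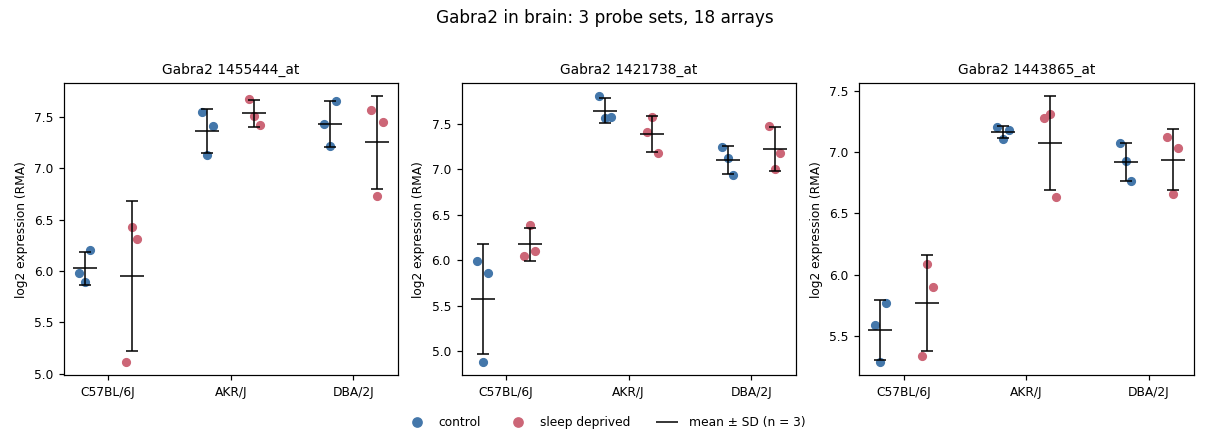
Gabra2 in brain on its 3 bright probe sets, as log2 RMA values of single arrays by strain and condition (points), with the mean and SD of each group (n = 3). On each probe set all 6 C57BL/6J arrays lie below the 12 arrays of the other strains.

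**Figure D4:**
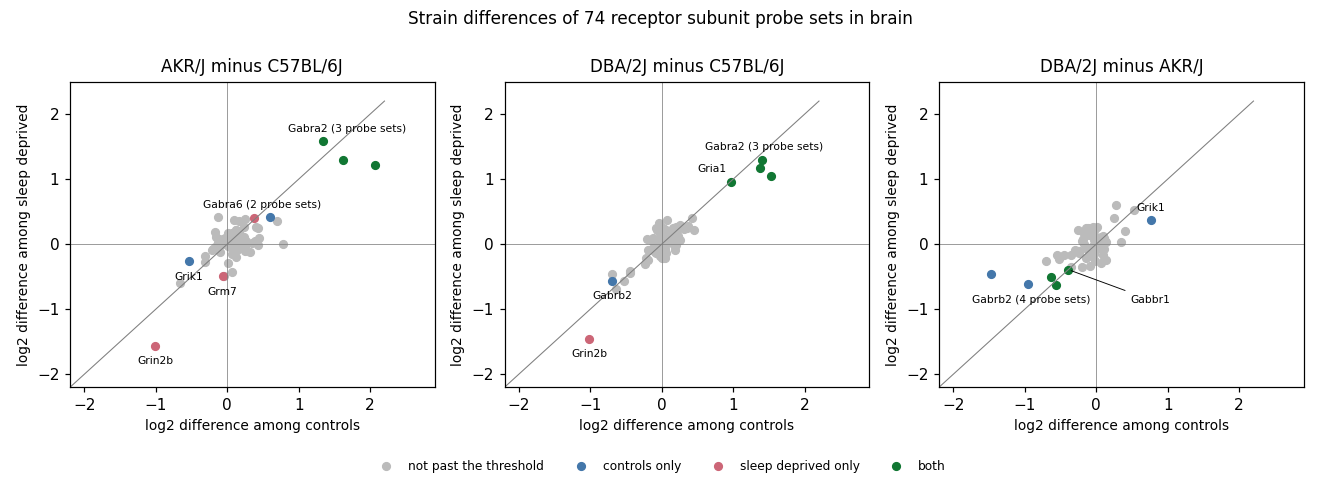
Strain differences of the 74 receptor subunit probe sets in brain, with the log2 difference among controls on the horizontal and among sleep-deprived mice on the vertical axis; the line marks equal differences, and colours show where the adjusted p was under 0.05. The 3 Gabra2 probe sets lie farthest to the upper right in both comparisons with C57BL/6J.

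Gabra2 lies on chromosome 5 in a cluster of GABA-A genes, in the order Gabrg1, Gabra2, Gabra4 and Gabrb1 in the reference assembly GRCm38.p6, with Cox7b2 between Gabra2 and Gabra4. None of the 3 neighbouring receptor genes passed on its representative probe set. Among controls, Gabrg1 differed from C57BL/6J by -0.12 (AKR/J) and 0.02 (DBA/2J), Gabra4 by -0.03 and -0.03, and Gabrb1 by 0.17 and 0.16. The promoter window of Gabra2, the GABA-A gene with the largest strain difference, is given as the stretch where its transcription starts, with that of Gabrb2, the gene described next. Both are RefSeq sequences of GRCm38.p6, an assembly of the C57BL/6J genome, so they show that strain only. Each spans 300 bases around a transcription start, 5' to 3' on the gene's own strand, chr5:71095800-71096099 (minus strand) for Gabra2 and chr11:42420190-42420489 (plus strand) for Gabrb2, where it is the first of 3 annotated starts. Capitals mark the GC box GGGCGG or its reverse complement CCGCCC and the TATA box TATAAA.
Gabra2: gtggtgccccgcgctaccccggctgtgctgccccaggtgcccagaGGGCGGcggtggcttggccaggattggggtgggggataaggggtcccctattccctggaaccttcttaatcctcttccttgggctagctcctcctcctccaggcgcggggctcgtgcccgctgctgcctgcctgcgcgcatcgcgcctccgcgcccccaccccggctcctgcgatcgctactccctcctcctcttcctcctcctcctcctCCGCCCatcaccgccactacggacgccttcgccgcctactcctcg
Gabrb2: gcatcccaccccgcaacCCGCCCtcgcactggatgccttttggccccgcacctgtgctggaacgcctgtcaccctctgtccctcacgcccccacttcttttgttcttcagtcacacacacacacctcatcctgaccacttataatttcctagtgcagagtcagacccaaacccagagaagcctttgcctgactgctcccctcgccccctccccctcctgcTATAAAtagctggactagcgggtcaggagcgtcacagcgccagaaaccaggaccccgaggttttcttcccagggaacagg
The Gabra2 window held the GC box on both strands and no TATAAA, and the Gabrb2 window held the GC box on the reverse strand and 1 TATAAA on the forward strand. Neither held the cAMP response element TGACGTCA or the E-box CACGTG. The windows at the other annotated starts of Gabrb2, not printed here, held none of the motifs named. On either strand, GGGCGG occurred in 35.7% of 32851 windows of this length, TATAAA in 13.6%, TGACGTCA in 1.79% and CACGTG in 7.15%. The motifs do not overlap one another.

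Gabrb2 encodes the beta-2 subunit, part of the most common GABA-A receptor of the adult brain, and was lower in DBA/2J. On the representative probe set 1429685_at the DBA/2J controls read 9.46, 9.10 and 8.94, the C57BL/6J controls 9.98, 9.60 and 9.98 and the AKR/J controls 10.19, 10.06 and 10.11. All DBA/2J controls lay below all controls of the other strains. The level was 1.61-fold lower than in C57BL/6J (-0.69 ± 0.15, adjusted p = 0.0227) and 1.94-fold lower than in AKR/J (-0.95 ± 0.15, adjusted p = 0.0016). The DBA/2J sleep-deprived arrays read 9.40, 8.98 and 9.40, below the 9.66, 9.88 and 9.94 of C57BL/6J and the 10.00, 9.98 and 9.64 of AKR/J. In sleep-deprived mice the differences were -0.56 (adjusted p = 0.0804) and -0.62 (adjusted p = 0.0582). Without the 5 arrays that stood apart they passed at -0.51 (adjusted p = 0.0157) and -0.59 (adjusted p = 0.0066). The control differences also passed without these 5 arrays, at -0.70 from C57BL/6J (adjusted p = 0.0014) and -0.84 from AKR/J (adjusted p = 1.596e-04). The difference from C57BL/6J in controls was lost without C57BL/6J control array 1 or 3 or DBA/2J control array 2 or 3 (-0.66 to -0.58, adjusted p = 0.1098 to 0.1445), and was -0.39 (adjusted p = 0.2491) with the mean of all Gabrb2 probe sets. The difference from AKR/J in controls was lost without both AKR/J controls whose labels conflict (-1.02, adjusted p = 0.0770).

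The other Gabrb2 probe sets did not all move alike. Between DBA/2J and AKR/J, 1428204_at was at -0.63 (adjusted p = 0.0056) in controls and -0.50 (adjusted p = 0.0368) in sleep-deprived mice, and 1428205_x_at at -0.56 (adjusted p = 0.0380) and -0.63 (adjusted p = 0.0177). The second of these 4 calls passed under 11 of 27 alternatives and the third under 15 of 27, against 26 and 23 of 27 for the others. Without the AKR/J controls whose labels conflict neither control call passed (adjusted p = 0.1860 and 0.4136), and without the 3 arrays of narrow spread the second call was at -0.41 (adjusted p = 0.1364). That second call passed without all 5 arrays that stood apart (-0.41, adjusted p = 0.0291). On 1450319_at the controls differed by -1.48 ± 0.36 (2.79-fold, adjusted p = 0.0493), which passed under 10 of 27 alternatives. Its lowest values were 6.30 on C57BL/6J control array 2 and 5.83 on DBA/2J control array 3, the 2 controls of raised beta-actin difference, and without the 5 arrays the difference was -1.06 (adjusted p = 1.874e-04). The remaining probe set, 1428203_at, was of opposite sign against C57BL/6J (0.31 in controls, adjusted p = 0.2039). The mean of 6 cerebellar markers was also lower in DBA/2J. It was 9.63 to 9.85 in DBA/2J controls, 9.98 to 10.11 in C57BL/6J and 10.10 to 10.21 in AKR/J controls. Between DBA/2J and C57BL/6J controls, Cbln3 was at -0.89 (adjusted p = 1.423e-04) and Zic1 at -0.62 (adjusted p = 0.0143). Cbln3 and Zic1 supplied most of that difference in the mean, so it does not stand for all 6 markers. The part of these markers in the Gabrb2 values was not tested.

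**Figure D5:**
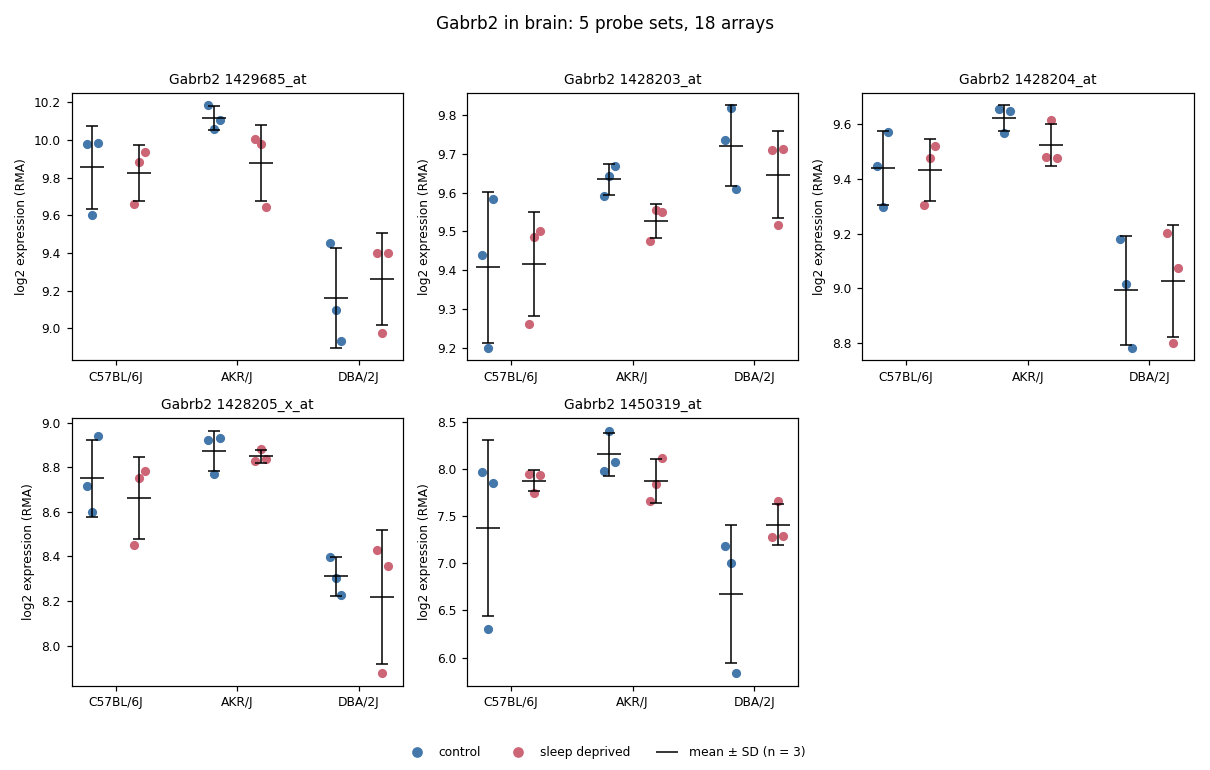
Gabrb2 in brain on its 5 probe sets, as log2 RMA values of single arrays by strain and condition (points), with the mean and SD of each group (n = 3). The DBA/2J arrays lie lowest on average on 4 probe sets and highest on 1428203_at.

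Gabra6 is the neighbour of Gabrb2 on chromosome 11, and its calls lay between AKR/J and C57BL/6J. On its representative probe set 1417121_at the C57BL/6J arrays read 9.71, 9.62 and 9.71 in controls and 9.65, 9.83 and 10.00 after sleep deprivation, and the AKR/J arrays 10.09, 10.01 and 10.08 in controls and 10.18, 10.28 and 10.22. The strains did not overlap in either condition. AKR/J was higher by 0.40 ± 0.10 in sleep-deprived mice (adjusted p = 0.0404), which passed under 9 of 28 alternatives and was 0.31 (adjusted p = 0.1694) without the narrow C57BL/6J array, and by 0.38 ± 0.10 in controls (adjusted p = 0.0536). The second probe set, 1451706_a_at, passed in controls (0.60 ± 0.14, adjusted p = 0.0268) and not in sleep-deprived mice (0.41, adjusted p = 0.2028). Without C57BL/6J control array 2, which read 7.91 against 8.52 and 8.51, the control difference was 0.40 (adjusted p = 0.1087), and without any one of the AKR/J controls it did not pass either (adjusted p = 0.0825 to 0.1052). This control difference passed without all 5 arrays that stood apart (0.40, adjusted p = 0.0155). DBA/2J and AKR/J differed by -0.03 in controls on 1417121_at, which did not pass. The part of the cerebellar markers in the Gabra6 values was not tested. On chromosome 7, the adjacent Gabrg3 and Gabra5 gave no strain call on their representative probe sets.

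Gabbr1 was lower in DBA/2J than in AKR/J. On 1455021_at the DBA/2J controls read 10.32, 10.42 and 10.20 and the AKR/J controls 10.73, 10.71 and 10.68. The sleep-deprived arrays read 10.34, 10.25 and 10.33 in DBA/2J and 10.59, 10.68 and 10.83 in AKR/J. The strains did not overlap in either condition. The difference was -0.39 ± 0.08 in controls (1.31-fold, adjusted p = 0.0122) and -0.39 ± 0.08 in sleep-deprived mice (adjusted p = 0.0132). The control call was lost without AKR/J control array 1 or 2 or DBA/2J control array 1 or 3 (-0.39 to -0.34, adjusted p = 0.0523 to 0.0929), and at -0.41 (adjusted p = 0.2859) without both AKR/J controls whose labels conflict. The control difference passed without all 5 arrays that stood apart (-0.34, adjusted p = 0.0166). In sleep-deprived mice the call was lost without AKR/J array 3 or DBA/2J array 2 (adjusted p = 0.0603 and 0.0509), both of narrow spread. There the difference was -0.30 (adjusted p = 0.1072) without all 3 such arrays and -0.30 (adjusted p = 0.0562) without all 5. The other 3 Gabbr1 probe sets did not pass, with control differences of -0.46, -0.05 and 0.04. With the mean of all Gabbr1 probe sets neither call passed, at -0.22 in controls (adjusted p = 0.2991) and -0.19 in sleep-deprived mice (adjusted p = 0.4608).

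Among glutamate receptors, calls came from probe sets that were not the brightest of their gene. Grin2b encodes the NMDA subunit that prevails early in life and in the adult forebrain. Its probe set 1422223_at was dimmer than the representative, with a mean of 5.06. On it the sleep-deprived C57BL/6J arrays read 6.07, 5.98 and 6.25. The sleep-deprived AKR/J arrays read 4.46, 4.11 and 5.03 and the DBA/2J arrays 4.68, 4.53 and 4.70. C57BL/6J was higher than both without overlap: AKR/J was at -1.56 ± 0.29 (2.96-fold, adjusted p = 0.0064) and DBA/2J at -1.46 ± 0.29 (2.76-fold, adjusted p = 0.0097) from it. The DBA/2J call was lost without the 3 arrays of narrow spread (-1.42, adjusted p = 0.0507) and without sleep-deprived C57BL/6J array 3 (-1.39, adjusted p = 0.0523), and passed without all 5 arrays (-1.42, adjusted p = 6.864e-04). The C57BL/6J controls read 6.31, 4.80 and 6.03, and the low one was control array 2, of raised beta-actin difference. In controls the differences were -1.01 (adjusted p = 0.1115) and -1.02 (adjusted p = 0.1139), and without the 5 arrays -1.47 (adjusted p = 2.287e-04) and -1.44 (adjusted p = 6.058e-04). The representative probe set 1457003_at was of the same sign, at -0.66 and -0.53 in controls and -0.60 and -0.57 in sleep-deprived mice, with adjusted p-values of 0.1070 to 0.3050. Without the 5 arrays its control differences passed at -0.60 (adjusted p = 0.0125) and -0.59 (adjusted p = 0.0249). On the other 2 Grin2b probe sets, 1442370_at and 1431700_at, the control differences from C57BL/6J were -0.21 to 0.05 and did not pass.

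Gria1, the AMPA subunit inserted at synapses during long-term potentiation, differed on 1 of 2 probe sets. On 1448972_at the DBA/2J controls read 9.07, 8.88 and 8.85 and the C57BL/6J controls 8.24, 7.48 and 8.18, and the sleep-deprived arrays 9.19, 8.81 and 9.11 against 8.04, 8.17 and 8.02. DBA/2J was higher without overlap in both conditions, by 0.97 ± 0.19 (1.95-fold, adjusted p = 0.0076) in controls and 0.96 ± 0.19 (1.95-fold, adjusted p = 0.0080) in sleep-deprived mice. The 7.48 was that of C57BL/6J control array 2, of raised beta-actin difference. Without the 5 arrays that stood apart the difference was 0.77 in controls (adjusted p = 4.188e-04) and 1.06 in sleep-deprived mice (adjusted p = 2.415e-05). The control call was lost without DBA/2J control array 1 (0.90, adjusted p = 0.0519). The brighter probe set, 1435239_at, was at -0.09 and -0.08 in the same comparisons and did not pass.

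Grik1 and Grm7 gave calls on dim probe sets in 1 condition. Grik1 encodes a kainate receptor subunit, and its probe set 1439987_at read 3.35, 3.71 and 3.42 in AKR/J controls, 4.11, 4.05 and 3.95 in C57BL/6J controls and 4.16, 4.35 and 4.28 in DBA/2J controls. AKR/J was below both without overlap, with a difference of -0.54 ± 0.10 from C57BL/6J (adjusted p = 0.0037) and with DBA/2J 0.77 ± 0.10 above it (adjusted p = 1.266e-04). In sleep-deprived mice these differences were -0.27 and 0.37, and neither passed. The interaction test in limma did not pass for this probe set (unadjusted p = 0.0284). With only the groups compared, the control difference from C57BL/6J was lost (adjusted p = 0.0565). The brighter Grik1 probe set, 1427676_a_at, had control means of 4.37 in AKR/J, 4.26 in C57BL/6J and 4.47 in DBA/2J. There C57BL/6J and not AKR/J was lowest, and no strain difference passed. Grm7 probe set 1458861_at read 4.65, 4.71 and 4.67 in sleep-deprived C57BL/6J and 4.25, 4.11 and 4.18 in sleep-deprived AKR/J, a difference of -0.50 ± 0.10 (adjusted p = 0.0124). It was lost without C57BL/6J array 2 (adjusted p = 0.0614) or AKR/J array 2 (adjusted p = 0.0686). In controls the difference was -0.07 (adjusted p = 0.9380). The brighter Grm7 probe set, 1443119_at, differed by 0.11 in sleep-deprived mice (adjusted p = 0.9145).

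Genes that work with these receptors were taken as a list of 60 auxiliary subunits, scaffolds, transporters, enzymes and further GABA-A subunits, of which 53 were measured. For the mean effect of sleep deprivation in brain 1 of 53 passed, Homer1, a scaffold of group I metabotropic receptors, which rose by 0.34 (log2; adjusted p = 0.0046). The background was 2.55% of all genes. None of the 53 was called lower, 31 were below 0 and their median was -0.01. For the strains, 1, 3 and 3 of the 53 passed among controls (AKR/J minus C57BL/6J, DBA/2J minus C57BL/6J and DBA/2J minus AKR/J), all of them lower, against backgrounds of 2.01%, 1.77% and 1.54% of all genes. Glul, the glutamine synthetase of astrocytes, was at -0.57 (adjusted p = 0.0029) in DBA/2J controls from C57BL/6J and at -0.64 (adjusted p = 9.245e-04) in sleep-deprived mice. Slc17a7, the vesicular glutamate transporter of cortical and cerebellar granule neurons, was at -0.63 (adjusted p = 0.0036) and -0.82 (adjusted p = 2.778e-04) in DBA/2J from AKR/J. Dlgap4, a postsynaptic scaffold, was at -0.62 (adjusted p = 0.0012) and -0.51 (adjusted p = 0.0073) in DBA/2J from C57BL/6J. Shank3, a scaffold beneath glutamate receptors, was at -0.36 in DBA/2J controls from AKR/J (adjusted p = 0.0296), and Slc6a11, a GABA transporter of astrocytes, at 0.66 in sleep-deprived AKR/J from C57BL/6J (adjusted p = 0.0295). Slc1a2, the main glutamate transporter of astrocytes, was lowest in sleep-deprived AKR/J, at -0.56 from C57BL/6J (adjusted p = 0.0058) and with DBA/2J 0.52 above it (adjusted p = 0.0112). Among sleep-deprived mice the backgrounds for the same 3 pairs were 1.86%, 1.92% and 1.54% of all genes. The calls named there are single genes and are not read as a result about the list.

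In liver the receptor genes were dim, with representative means of 2.62 to 4.86, and none passed for sleep deprivation: 0 of 33, against 4.84% of all genes. At an unadjusted p under 0.05 there were 0 of 33, against 19.0% of all genes. The 3 lowest p-values were those of Grin3b (-0.14, adjusted p = 0.3246), Gabrd (-0.10, adjusted p = 0.4319) and Grin2d (-0.11, adjusted p = 0.4743). Conditions lay apart in opposite ways in 2 strains for 2 of 74 probe sets, of Grik3 and Gabrb1, against 1.54% of all. Among controls the strains differed for 0 of 33 genes between AKR/J and C57BL/6J (background 6.98%), 0 between DBA/2J and C57BL/6J (7.68%) and 1 between DBA/2J and AKR/J (5.78%). That gene was Gabrd, the delta subunit of extrasynaptic GABA-A receptors, below the liver median in both strains. It read 3.73, 3.52 and 3.75 in DBA/2J and 3.31, 3.31 and 3.27 in AKR/J controls, without overlap, a difference of 0.37 ± 0.10 (1.29-fold, adjusted p = 0.0457). It passed under 10 of 26 alternatives, and without DBA/2J control array 1, whose beta-actin difference was 2.16 against 0.96 to 1.45 on the other liver arrays, it was 0.34 (adjusted p = 0.1514).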

How the data were processed

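RNA of whole brain and of liver was measured on 36 Affymetrix arrays, 18 per tissue, each with RNA pooled from 3 mice. The deposited log2 values are RMA output of the authors, per the submitters' processing notes, and no source used here gives the RMA version. RMA compresses the differences of dim probe sets, and the brain arrays as deposited did not share 1 distribution (SD 1.90 to 2.05), so quantile normalization was an alternative. Gene symbols came from the platform annotation, and 64 control probe sets were left out. Levels in brain were not set against levels in liver. Values of different probe sets were ordered to choose representatives and to call a probe set dim or bright, and no transcript amounts were compared through them.

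Each tissue was fitted as 6 group means (limma 3.58.1, R 4.3.3). P-values are two-sided, measure the spread between pools, and were adjusted by the Benjamini-Hochberg method over 45037 probe sets. Values after ± are SEs from limma with 3 arrays per group, unless given as SD. Any member gene could be named; full statistics were given for calls, for the 3 smallest p where fewer than 3 passed, and for other probe sets of a gene where called or opposed. The members and lists were chosen with earlier results of these data known. The fits were tested on simulated data. Precision is limited by the 3 arrays per group. Alternatives changed the normalization, variance model, low-value filter, probe set choice, replicate block and arrays. Within a strain, same-numbered control and sleep-deprived brain arrays had correlations of their deviations of -0.42 to 0.41. Pairs of unlike number had -0.48 to 0.56. The numbers thus gave no sign of pairing, though 9 same-numbered pairs cannot exclude it. Promoter sequences were RefSeq's, with entries for 23 of 33 genes. Some receptor subunits are not reported here.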

Additional observations from a re-analysis of the deposited data

Results flagged for a closer look

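In brain, Grm7 probe set 1458861_at read lower on all sleep-deprived than on all control arrays in AKR/J (-0.27) and higher in C57BL/6J (0.16), the only one of 74 member probe sets with such opposite separation in 2 strains, against 0.702% of all probe sets. The interaction test gave an unadjusted p of 0.0245 and an adjusted p of 1.0000 in limma. In liver, 2 of 74 did so, against 1.54% of all probe sets. Grik3 1427709_at was at -0.21 in AKR/J and 0.13 in C57BL/6J (interaction adjusted p = 0.7105), and Gabrb1 1443205_at at 0.15 in AKR/J and -0.18 in DBA/2J (interaction adjusted p = 0.7053).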

How the results depend on the processing

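No call of a member named in the text changed sign under the alternatives run. The median mean effect of the 33 genes in brain changed sign to 0.0062 without the 3 arrays of narrow spread, where 16 genes were below 0, and 17 were without the 5 arrays that stood apart. For sleep deprivation in brain the count of member probe sets was 0 with equal array medians, without AKR/J, without its 2 controls whose labels conflict and without the 5 arrays, and 2 with only probe sets above the median; the count of genes was 1 with that filter and 1 with the mean of all probe sets of a gene (Grik5, adjusted p = 0.0411 and 0.0403). Within strains 1 probe set passed without the 3 or the 5 arrays. For the strain differences of controls, 6 genes passed with quantile normalization, 6 without the 3 arrays and 1 without AKR/J, in place of 3, and 6 probe sets without the controls whose labels conflict, 4 without AKR/J and 17 without the 5 arrays, in place of 11. For sleep-deprived mice 6 genes passed with quantile normalization, 1 without the 3 arrays, and 0 without AKR/J or with only the groups compared, in place of 3, and 3 probe sets with each of the last 2 settings, in place of 10. In liver, 2 genes and 2 probe sets passed between control strains with equal medians, and 4 probe sets with an intensity trend. The counts were 0 with the filter and without AKR/J. They were also 0 without the array of raised beta-actin difference and with only the groups compared. For sleep deprivation in liver 26 of the 33 genes were below 0, and 17 with equal medians. With the filter 5 were, out of fewer genes, as 26 of the 33 lay below the liver median. For the mean effect of sleep deprivation in brain, 2.55% of all genes passed with all arrays. It was 5.43% without the 3 arrays of narrow spread and 5.53% without the 5. For strain differences, liver and the other alternatives, here and in the next paragraph, the share of all genes was not counted. Changes in these counts are thus not read as a trait of the members. Apart from the fits with fewer arrays or probe sets, the cause was not tested.

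Leaving out 1 array at a time gave 0 to 1 probe sets for sleep deprivation in brain and 0 to 1 within strains, 2 to 4 genes and 7 to 13 probe sets for control strain differences, 2 to 4 genes and 6 to 13 probe sets for those of sleep-deprived mice, 24 to 27 genes below 0 in brain and 19 to 28 in liver, and 0 to 1 genes and 0 to 2 probe sets for control strain differences in liver. With a replicate block the counts were 0 genes and 1 probe set for sleep deprivation in brain, 3 genes and 10 probe sets for controls and 2 genes and 8 probe sets for sleep-deprived mice. As array numbers gave no sign of pairing, this fit is an alternative only.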
